A study of Mus musculus with 18 samples.

Results

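Ly6a, Ly6c1, Ly6c2 and Ly6e are 4 genes for lymphocyte antigen 6 (Ly6) surface proteins, and they were chosen by symbol from the 15402 genes of the expression table. All 4 were present and passed the filter on low values that 13190 genes passed. Their expression was read by RNA-seq in 6 sorted T-cell populations from lymph nodes of skin-sensitised mice, with 3 libraries each. The question was how these neighbouring genes differ between T cells that keep transcribing Foxp3, the transcription factor of regulatory T cells (Treg), and T cells that have slowed or stopped doing so, and between activated and naïve conventional T cells.

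All groups came from female mice of the strain given as C57/BL6 Foxp3Timer Foxp3-IRES-GFP, in which Foxp3 regulatory sequence drives a fluorescent Timer protein and a second reporter links GFP to the Foxp3 gene. The Timer protein is blue when new and turns into a longer-lived red form, so its colour reports how recently and how steadily Foxp3 has been transcribed. Every mouse, including those that gave the conventional cells, carried both reporters and had 3% oxazolone, a contact sensitiser, painted on the abdominal skin. Inguinal and axillary lymph nodes were taken 5 days later from mice that were 5 to 10 weeks old at sensitisation, and each replicate was a pool of 3 mice from which all populations were sorted, so there was no unsensitised group. Tnaive were CD44lo and Teff CD44hi cells without Timer and GFP. The persistent Foxp3 expressors were sorted as Pers1, with intermediate blue and little red Timer, and as Pers2, rich in both forms. PAt cells, described as quiescent Treg, had much red and little blue Timer, and Arrested cells had no blue and an intermediate amount of red. The sample labels name the same 4 sorts in order as de novo, maturing, mature and decaying Foxp3 expressers.

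Ly6 proteins are small, cysteine-rich proteins held in the outer membrane by a glycosylphosphatidylinositol (GPI) anchor, and in the mouse many of their genes lie in 1 cluster on chromosome 15. Ly6a encodes Sca-1, widely used to mark haematopoietic stem cells and also raised on activated and interferon-treated T cells. Ly6c1 and Ly6c2 encode a pair of near-identical Ly6C antigens carried by monocytes, plasmacytoid dendritic cells and subsets of T cells, where Ly6C is used to divide memory cells and Treg by their state of activation. Ly6e encodes the thymic antigen also known as TSA-1 or Sca-2, and like Ly6a it is inducible by interferon.

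The annotation (GENCODE vM21, GRCm38, the assembly also called mm10) placed all 4 genes within 1 stretch of chromosome 15. Ly6e lies on the plus strand at 74955051 to 74959905. The other 3 lie on the minus strand, Ly6a at 74994877 to 74998031, Ly6c1 at 75044018 to 75048830 and Ly6c2 at 75108158 to 75111970. All are protein-coding. Without the stop codon, the coding sequence of the first listed transcript was 402 nucleotides for Ly6a, 393 for Ly6c1, 393 for Ly6c2 and 408 for Ly6e. Ly6c1 and Ly6c2 matched at 384 of 393 coding positions (97.7%). Their first 300 coding bases are printed to show how few coding bases differ, with those in capitals (5′ to 3′, in the coding sense). Outside the coding sequence the transcripts held 451 (Ly6c1) and 429 (Ly6c2) more nucleotides. Reads from that part can also separate the pair.
Ly6c1 coding bases 1 to 300: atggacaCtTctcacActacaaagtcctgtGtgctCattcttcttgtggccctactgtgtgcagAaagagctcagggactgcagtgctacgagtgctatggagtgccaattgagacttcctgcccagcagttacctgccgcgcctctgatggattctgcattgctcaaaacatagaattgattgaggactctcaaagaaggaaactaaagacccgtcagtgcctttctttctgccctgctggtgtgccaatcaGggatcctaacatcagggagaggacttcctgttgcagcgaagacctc
Ly6c2 coding bases 1 to 300: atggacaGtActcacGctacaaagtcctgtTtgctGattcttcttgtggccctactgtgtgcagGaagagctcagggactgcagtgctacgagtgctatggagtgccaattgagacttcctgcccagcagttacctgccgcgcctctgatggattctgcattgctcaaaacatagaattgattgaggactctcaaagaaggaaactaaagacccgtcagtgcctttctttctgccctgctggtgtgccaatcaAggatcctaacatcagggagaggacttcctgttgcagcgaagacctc
Of the 9 differing bases 7 are in this stretch and 2 follow it. The longest identical run was 188 bases, longer than the 100-bp reads. Of the 100-base windows in the annotated transcripts, 114 of 745 from Ly6c1 (15.3%) and 114 of 723 from Ly6c2 (15.8%) also occurred in the partner gene. No such window of Ly6a (0 of 720) or Ly6e (0 of 2182) occurred in another member. Ly6a matched Ly6c1 at 81.8% and Ly6c2 at 81.6% of aligned coding positions, and Ly6e matched the others at 50.1% to 53.5%. A single read from the identical run cannot be assigned to Ly6c1 or Ly6c2 by sequence alone, and how the authors' counting treated them is not given in the sources used here.

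Upstream of the gene the pair had diverged further. The 250 bases before the RefSeq start (GRCm38.p6) are printed because Ly6c1 and Ly6c2 differed in most of the comparisons that follow. The Ly6c1 stretch is chr15:75048838-75049087 and the Ly6c2 stretch chr15:75111972-75112221, both read from the minus strand, with motif matches in capitals.
Ly6c1 upstream: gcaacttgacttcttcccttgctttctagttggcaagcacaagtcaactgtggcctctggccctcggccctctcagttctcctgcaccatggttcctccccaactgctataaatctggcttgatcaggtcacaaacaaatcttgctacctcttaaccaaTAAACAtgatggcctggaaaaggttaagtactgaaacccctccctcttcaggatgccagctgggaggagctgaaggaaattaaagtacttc
Ly6c2 upstream: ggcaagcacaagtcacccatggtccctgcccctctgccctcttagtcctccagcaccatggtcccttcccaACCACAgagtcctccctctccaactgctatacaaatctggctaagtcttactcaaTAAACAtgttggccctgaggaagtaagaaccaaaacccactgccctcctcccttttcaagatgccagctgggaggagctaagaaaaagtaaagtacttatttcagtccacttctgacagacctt
Over their overlap, 164 of 228 aligned columns were identical (71.9%), and both held the forkhead core TAAACA. That motif began 91 bases before the start of Ly6c1 and 124 bases before that of Ly6c2, and 12.03% of 32851 promoter windows of this length held it on either strand. Ly6c2 alone of the pair held the RUNX core TGTGGT, once, on the reverse strand (14.1% of windows). Neither stretch matched the motif TTCNNNGAA (7.02% of windows), the core of the interferon-stimulated response element, GAAA, any 2 bases and GAAA again (2.98%), or the AP-1 motif TGANTCA (6.75%), on either strand. None of these motifs overlapped another match, and a match of letters is a description of the sequence, not of binding. The table of promoters used here had no entry for Ly6a or Ly6e.

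The deposited values are log2 normalised read counts, and the depth of each library is unknown. The exact transform is not given in the sources used here. If it shrank the values, as such transforms can, the folds printed here understate the change in counts, most of all for low genes. Fold changes were tested with limma on all 18 libraries, with Benjamini-Hochberg adjustment over 13190 genes, and a gene was called when its adjusted p was under 0.05 and its log2 fold change beyond 1 in either direction. The sorts were visible in the genes that define them. Foxp3 averaged 14.42 to 14.82 in the 4 Timer+ populations, 11.34 in Tnaive and 10.54 in Teff. Cd44 averaged 9.61 in Tnaive and 11.86 to 13.05 elsewhere, and Cd4, between 14.49 and 15.67, was high in every population. Teff also held transcripts of non-T cells. Summed markers of B cells and of conventional dendritic cells also lay above Tnaive in every Timer+ population. Those of B cells were higher in PAt and Arrested than in persistent cells. The values are given beside Ly6c2.

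Per kilobase of the longest coding transcript, on the log2 scale, Ly6e was the highest of the 4 in every population, between 13.27 in Tnaive and 14.55 in Pers2. Ly6a per kilobase ran from 10.75 in PAt to 13.30 in Pers1, Ly6c1 from 8.47 in Pers2 to 11.37 in Arrested, and Ly6c2 from 8.36 in Pers2 to 10.70 in Teff. The highest means of the 4 genes thus fell in 4 different populations, although Pers1 and Pers2 could not be separated for Ly6a and Ly6e, nor Arrested and Tnaive for Ly6c1. Between its highest and lowest population Ly6c1 varied 7.48-fold, Ly6a 5.83-fold, Ly6c2 5.05-fold and Ly6e 2.43-fold.

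**Figure D1:**
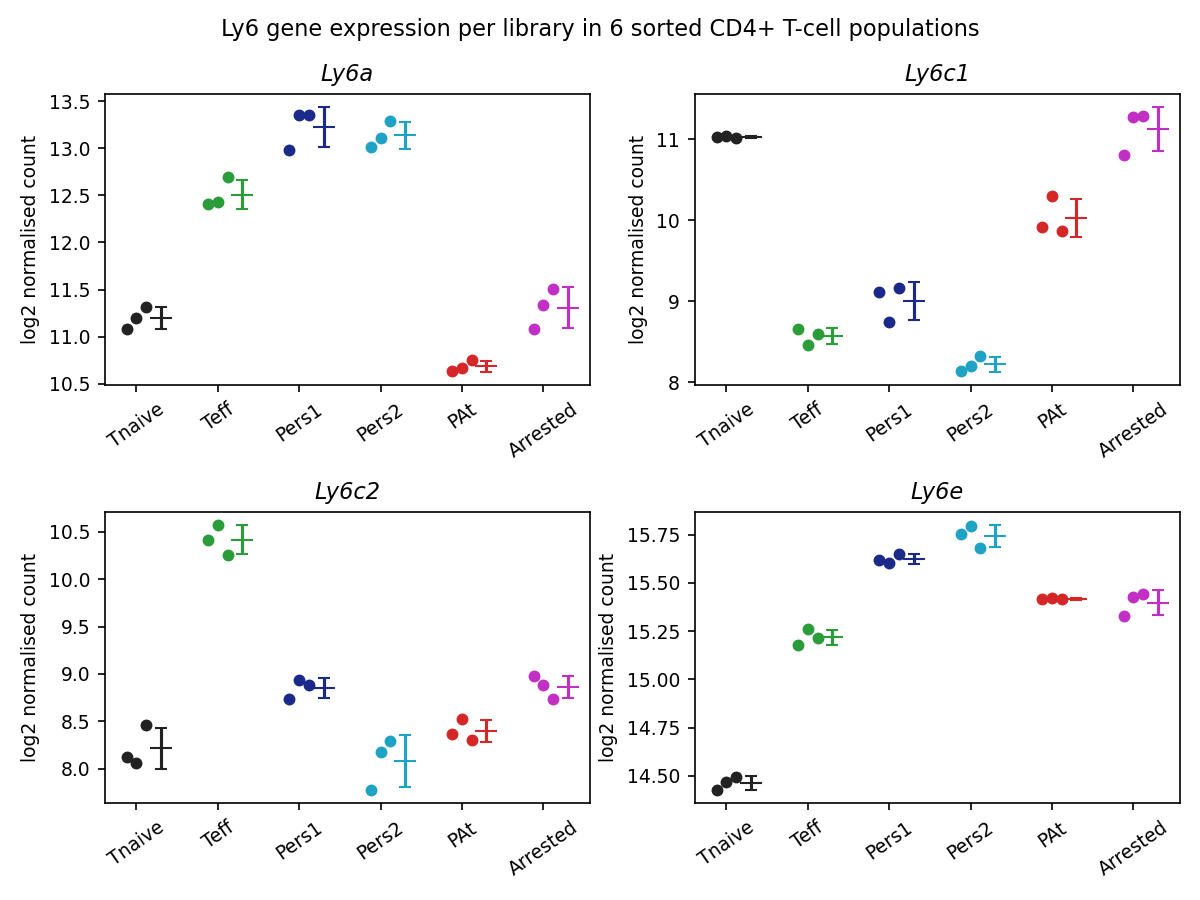
Log2 normalised count (vertical axis, 1 scale per panel) of each gene in the 18 libraries by population, with points for libraries and, to their right, the mean and SD of 3. Ly6a was highest in Pers1 and Pers2, Ly6c1 in Tnaive and Arrested, Ly6c2 in Teff and Ly6e in Pers2.

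Ly6a, the gene of Sca-1, split the Timer+ sorts into a high pair, Pers1 and Pers2, and a low pair, PAt and Arrested. Ly6a was also higher in Teff, sorted without Timer (mean 12.51), than in Arrested (11.31) and PAt (10.69). Its log2 value was 12.98, 13.35 and 13.35 in the 3 Pers1 libraries and 13.01, 13.11 and 13.29 in the Pers2 libraries. The PAt libraries were at 10.64, 10.67 and 10.75 and the Arrested libraries at 11.08, 11.33 and 11.51. The 6 persistent libraries all lay above the 6 PAt and Arrested libraries, as they did or the reverse for 45.8% of tested genes. Averaged over both populations on each side, Ly6a was 4.56-fold higher in persistent cells (log2 fold change 2.19, SE 0.08, limma adjusted p = 6.3e-16). It was called, as were 7.51% of tested genes in this comparison. In sorted bulk RNA, fewer cells that carry a transcript and less of it per cell cannot be told apart, and this holds for every value here.

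Among conventional T cells Ly6a was at 11.08, 11.20 and 11.31 in Tnaive and at 12.41, 12.43 and 12.69 in Teff. Ly6a rose 2.48-fold from Tnaive to Teff (log2 1.31, SE 0.11, limma adjusted p = 9.5e-10), and 11.2% of tested genes were called there. The order of population means was Pers1, Pers2, Teff, Arrested, Tnaive and PAt. Pers1 and Pers2 did not differ beyond their spread (0.09, 95% interval -0.13 to 0.32, limma adjusted p = 0.671), and neither did Arrested and Tnaive (0.11, -0.11 to 0.33, adjusted p = 0.432). PAt was lowest of all, 0.51 below Tnaive (SE 0.11, limma adjusted p = 0.000491), and Arrested lay 0.62 above PAt (SE 0.11, limma adjusted p = 0.00128). Persistent cells exceeded Teff by 0.67 (SE 0.09, limma adjusted p = 2.5e-06), short of the fold required for a call, in a comparison with 8.31% of genes called. The 9 persistent and Teff libraries thus formed the high group for Ly6a, between 12.41 and 13.35, and the other 9 the low group, between 10.64 and 11.51.

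Ly6c1 was opposite to Ly6a between persistent cells and PAt and Arrested cells. Its log2 value was 8.74, 9.12 and 9.16 in the Pers1 libraries and 8.15, 8.20 and 8.33 in the Pers2 libraries. The PAt libraries were at 9.87, 9.92 and 10.30 and the Arrested libraries at 10.81, 11.28 and 11.29. Each of the 6 persistent libraries was below each of the 6 PAt and Arrested libraries, and 45.8% of tested genes separated fully in either direction. Ly6c1 was 3.90-fold lower in persistent cells (log2 -1.96, SE 0.09, limma adjusted p = 7.0e-14) and was called, as were 7.51% of tested genes.

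In conventional cells the 3 Tnaive libraries agreed closely for Ly6c1, at 11.01, 11.03 and 11.04, and the Teff libraries were at 8.46, 8.59 and 8.66. Ly6c1 fell 5.48-fold from Tnaive to Teff (log2 -2.45, SE 0.13, limma adjusted p = 6.9e-13). Arrested and Tnaive did not differ beyond their spread (0.10, 95% interval -0.17 to 0.37, limma adjusted p = 0.556). Below them the means stepped down through PAt, 1.00 under Tnaive, and Pers1, 1.02 under PAt, to Teff, 0.44 under Pers1, and Pers2, 0.35 under Teff. Each of these steps had a limma adjusted p between 7.4e-07 and 0.0286. Averaged over Pers1 and Pers2, persistent cells differed from Teff by 0.04 (95% interval -0.19 to 0.28, limma adjusted p = 0.765).

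Ly6c1 was also among the few genes that separated the paired Timer populations. It was 2.14-fold higher in Arrested than in PAt (log2 1.10, SE 0.13, limma adjusted p = 2.4e-05), 1 of the 16 genes called there (0.121% of those tested). With 1 library left out at a time the value stayed between 1.01 and 1.26, near the required fold at its lower end. Summed with Ly6c2, the pair was 0.97 higher in Arrested, just under that fold, so the call did not hold for the sum. From Pers1 to Pers2, Ly6c1 decreased by 0.78 on the log2 scale (SE 0.13, limma adjusted p = 0.000448). This stayed under the required fold, in a comparison where 0.19% of genes were called and 10.6% had an adjusted p under 0.05.

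Ly6c2, despite its near-identical coding sequence, had its peak in Teff. The 3 Teff libraries were at 10.26, 10.42 and 10.57. All 15 other libraries lay between 7.77 and 8.97. Ly6c2 was 4.60-fold higher in Teff than in Tnaive (log2 2.20, SE 0.13, limma adjusted p = 4.7e-12) and 3.87-fold lower in persistent cells than in Teff (log2 -1.95, SE 0.11, limma adjusted p = 3.9e-12). In PAt and Arrested it was 3.45-fold lower than in Teff (log2 -1.79, SE 0.11, limma adjusted p = 2.0e-11, 6.88% of genes called). In the same comparison Ly6a was 2.85-fold lower and Ly6c1 4.02-fold higher, and both were called. The sum of Ly6c1 and Ly6c2 changed by 0.15 there (limma adjusted p = 0.189), so neither call of the pair held for it.

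Outside Teff the differences in Ly6c2 were small. Tnaive was at 8.06, 8.12 and 8.46 and PAt at 8.31, 8.36 and 8.52. Pers1 was at 8.73, 8.88 and 8.93, Arrested at 8.74, 8.88 and 8.97, and Pers2 at 7.77, 8.18 and 8.29. Pers1 and Arrested overlapped and stood above Pers2, which overlapped Tnaive. The persistent populations and the PAt and Arrested populations differed by -0.17 (SE 0.09, 95% interval -0.36 to 0.03, limma adjusted p = 0.115). Ly6c2 decreased by 0.77 from Pers1 to Pers2 (SE 0.13, limma adjusted p = 0.000581), nearly the same step as Ly6c1 took. It was 0.47 higher in Arrested than in PAt (SE 0.13, limma adjusted p = 0.0404, highest adjusted p 0.133 with 1 library left out).

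The peak of Ly6c2 in Teff came with transcripts of other cell types. Of 10 marker genes of plasmacytoid dendritic cells, 8 were called higher in Teff than in Tnaive, where 8.88% of tested genes were called higher. The same number had all 3 Teff libraries above all 15 others, and the share of all genes that did was not computed. Siglech, a surface lectin of these cells, was at 10.78, 10.93 and 10.16 in the Teff replicates and at most 4.57 in every other library. Klk1 was at 8.91, 8.72 and 7.52 in Teff against at most 3.63, and Spib, a transcription factor of these cells and of B cells, at 9.75, 10.04 and 9.63 against at most 8.22. Summed over the list on the linear scale, the log2 level was 13.48 to 13.88 in Teff and 12.40 to 12.96 elsewhere.

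Markers of conventional dendritic cells moved the same way, with 9 of 10 called higher in Teff than in Tnaive. Their summed log2 level was 15.12 to 15.56 in Teff and 11.08 to 13.62 in the other libraries. Markers of B and plasma cells did so too (10 of 10, 11.68 to 12.34 against 9.76 to 11.95). Of 9 tested monocyte and macrophage markers 4 were called higher and 5 were not called, with Itgam at -0.11 and Fcgr3 at -0.16. The summed level of that list was 11.83 to 12.01 in Teff, above Tnaive (9.94 to 10.03) but below the persistent libraries (13.87 to 14.21). Beside these counts stand 8.88% of all tested genes called higher and 2.28% called lower in Teff than in Tnaive. Of the neutrophil list, 4 of 10 genes were in the table and none of the 2 tested was called. Of other lists, 2 of 4 CD8 T-cell genes and 2 of 5 endothelial and stromal genes tested were called higher, NK-cell genes gave 2 higher and 2 lower of 6, and the only erythroid gene in the table was not called. None of 7 tested T-cell identity genes was called, and 4 were higher in Teff at an unadjusted limma p under 0.05. These were Cd4 (0.61), Cd3d (0.33), Cd3g (0.25) and Cd2 (0.16), while the rest were Cd3e (0.07), Lck (0.08) and Cd5 (-0.03). Of 10 B and plasma cell markers, 6 were also called higher in PAt and Arrested than in Tnaive. That comparison had 7.9% of all tested genes called in either direction. The summed log2 level of these markers was 11.75 to 11.95 in PAt and 11.38 to 11.66 in Arrested. It was 10.66 to 10.93 in the persistent libraries and 9.76 to 10.13 in Tnaive. For conventional dendritic cell markers it was 13.23 to 13.62 in PAt and 12.99 to 13.23 in Arrested. It was 12.68 to 13.05 in the persistent libraries and 11.08 to 11.64 in Tnaive. Of these 10 dendritic cell markers, 3 were called higher in PAt and Arrested than in Tnaive. None of the 10 B and plasma cell markers was called between PAt and Arrested cells and Teff, where 6.88% of all tested genes were called. Their median log2 fold change was -0.60, with 0 of the 10 higher than in Teff. Of the 10, 8 had an unadjusted limma p under 0.05. Ly6d, the Ly6 gene used to mark B-lineage progenitors, was at 9.38, 9.55 and 9.24 in Teff and at most 7.502 elsewhere. The part of these cells in the Ly6c2 value of Teff was not tested. Between persistent cells and PAt and Arrested cells, 4.74% of all tested genes were called higher and 2.77% lower. In the Treg comparison the plasmacytoid list gave 0 of 10 higher and 2 lower in persistent cells, and B-cell markers 0 higher and 3 lower, among them Cd79a (-1.14) and Ms4a1 (-1.11). Of the monocyte list, Ccr2 (4.17) and Itgam (2.05) were called higher in persistent cells, along with Ly6a, while the macrophage genes Csf1r (0.03), Adgre1 (0.01) and Lyz2 (-0.19) were not called. The monocyte list summed to 13.87 to 14.21 in persistent libraries and 10.46 to 10.78 in PAt and Arrested libraries. Such a sum is set by the highest genes of a list. Over the 9 tested genes the median log2 fold change was 0.01, and 7 were not called. The part of non-T cells in the Ly6 values was not tested.

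**Figure D2:**
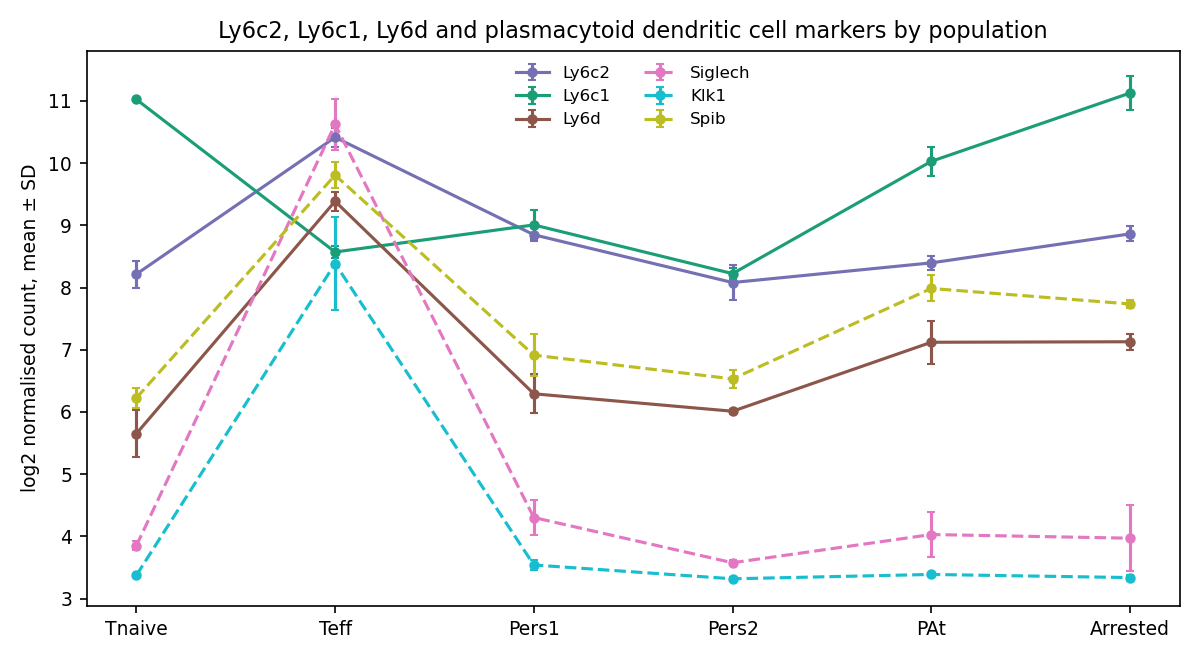
Mean log2 normalised count with SD (vertical axis, 3 libraries per population) of Ly6c2, Ly6c1, Ly6d and the plasmacytoid dendritic cell markers Siglech, Klk1 and Spib in the 6 populations, joined by lines for reading only. Ly6c2, Ly6d and the markers all peaked in Teff, where Ly6c1 was near its lowest.

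The balance between the 2 Ly6C genes differed widely between the populations. Taken as a share of the summed normalised count of the pair, which is not corrected for length, Ly6c2 made up 12.6% ± 1.8 in Tnaive and 78.1% ± 2.7 in Teff (SD, n = 3). It made up 47.3% ± 5.3 in Pers1 and 47.5% ± 3.5 in Pers2. In PAt the share was 24.4% ± 1.6 and in Arrested 17.4% ± 3.9. The 3 Teff libraries, 76.1% to 81.2%, were the only ones with a share above 53.3%, and the 9 Tnaive, PAt and Arrested libraries lay between 11.3% and 25.4%. Since reads of the pair can be split between them, the sum was also examined. Its mean log2 value was 11.41 in Arrested, 11.22 in Tnaive, 10.77 in Teff, 10.43 in PAt, 9.94 in Pers1 and 9.16 in Pers2. As a single feature the pair was lower in persistent cells than in PAt and Arrested (log2 -1.37, SE 0.07, limma adjusted p = 9.2e-13). From Tnaive to Teff it changed by -0.45 (SE 0.11, limma adjusted p = 0.00111), which was under the required fold, so the call of neither gene held for the sum.

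**Figure D3:**
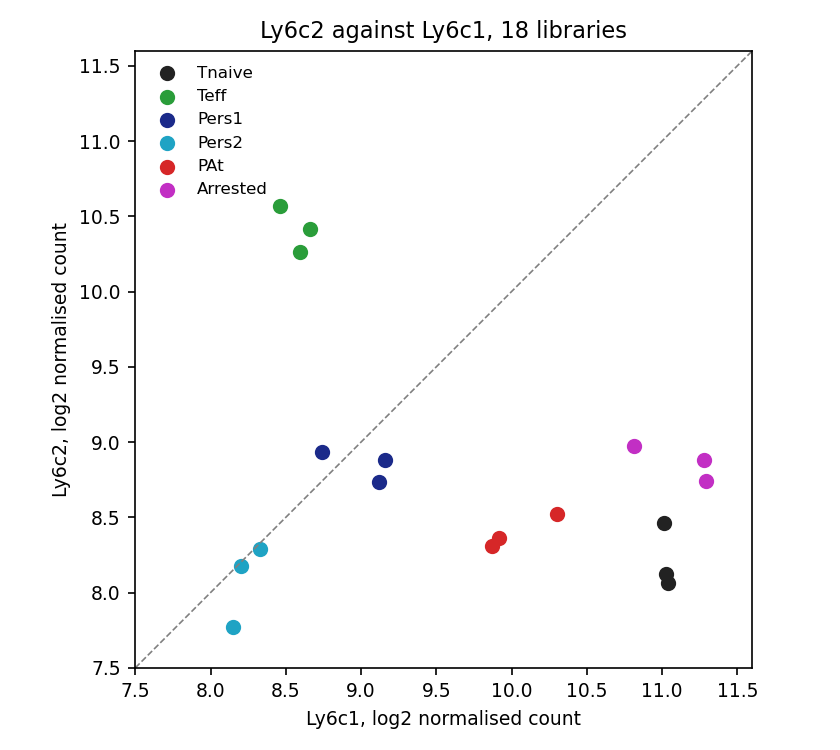
Log2 normalised count of Ly6c2 (vertical axis) against Ly6c1 (horizontal axis) in the 18 libraries, coloured by population, with a dashed line where both are equal. The 3 Teff libraries lay far above the line with a mean Ly6c2 share of 78.1%, the persistent libraries lay near it, 1 of them just above (53.3%), and Tnaive, PAt and Arrested lay below it.

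Ly6e was the steadiest and most abundant of the 4. Its log2 value was 14.43, 14.47 and 14.49 in Tnaive and 15.18, 15.21 and 15.26 in Teff. The persistent libraries were at 15.60, 15.62 and 15.65 (Pers1) and at 15.68, 15.75 and 15.79 (Pers2). The others were at 15.41, 15.41 and 15.42 (PAt) and at 15.33, 15.43 and 15.44 (Arrested). Every Tnaive library was below every other library, and the share of all genes with such a separation was not computed. Ly6e was 1.69-fold higher in Teff than in Tnaive (log2 0.75, SE 0.05, limma adjusted p = 6.5e-12), and 1.92-fold higher in PAt and Arrested than in Tnaive (log2 0.94, SE 0.04, limma adjusted p = 1.5e-14, 7.9% of genes called). The persistent libraries all exceeded the PAt and Arrested libraries, by 0.28 (SE 0.03, limma adjusted p = 1.5e-07). A full separation of these libraries, in either direction, held for 45.8% of tested genes. All 3 differences had small errors yet none reached the required fold, and 70.9% of tested genes had an adjusted p under 0.05 in the last of them.

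In order of level Ly6e ran from Pers2 through Pers1, PAt, Arrested and Teff to Tnaive. Pers2 and Pers1 differed by 0.12 (95% interval 0.02 to 0.21, limma adjusted p = 0.105) and PAt and Arrested by 0.02 (-0.08 to 0.11, adjusted p = 0.887). Pers1 exceeded PAt by 0.21 (limma adjusted p = 0.000492), and Arrested exceeded Teff by 0.18 (limma adjusted p = 0.0025). Persistent cells exceeded Teff by 0.47 (SE 0.04, limma adjusted p = 1.8e-09). Ly6e was therefore higher in all 4 Timer+ populations than in either Timer- population, a pattern that none of the other 3 genes had.

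**Figure D4:**
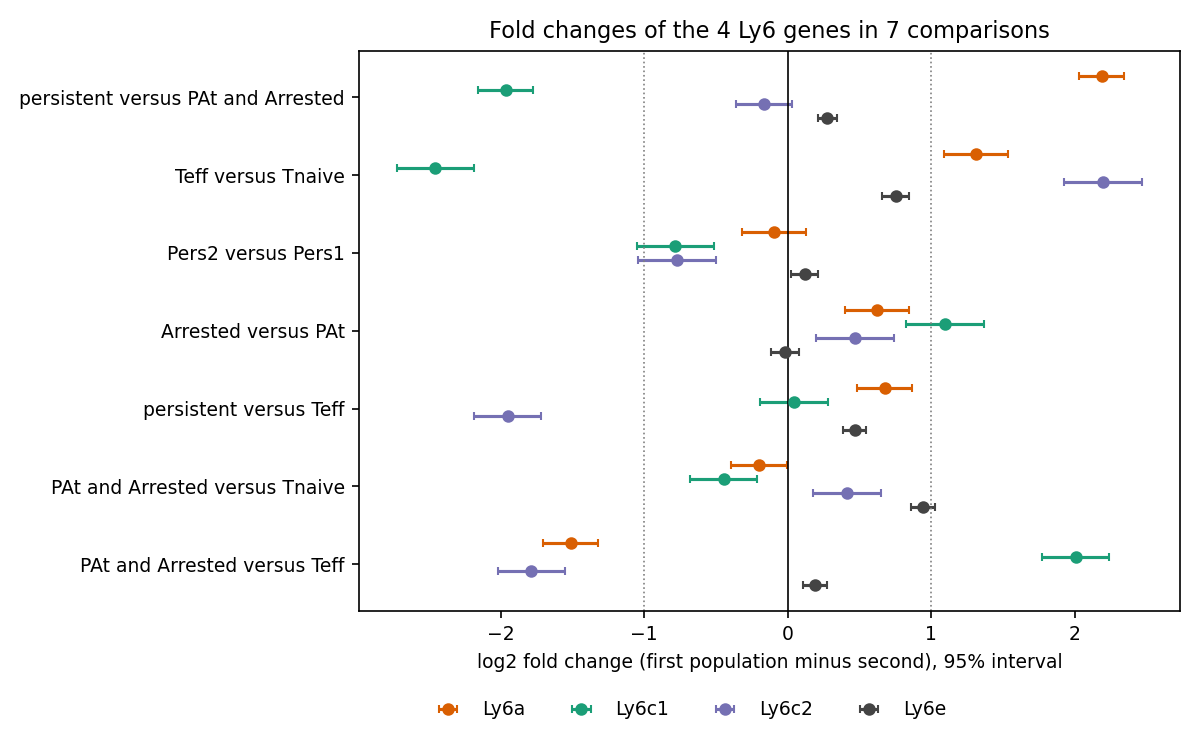
Log2 fold change (horizontal axis, first population minus second) of the 4 genes in 7 comparisons, with 95% intervals from limma and dotted lines at the fold required for a call. Between persistent cells and PAt and Arrested cells Ly6a (2.19) and Ly6c1 (-1.96) lay on opposite sides, Ly6c2 (-0.17) near 0 and Ly6e (0.28) slightly above it.

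The shift from PAt and Arrested to persistent Treg and the shift from Tnaive to Teff were then compared for each gene. The difference between the shifts, Treg minus conventional, was 0.87 for Ly6a (SE 0.13, limma adjusted p = 1.2e-05) and 0.49 for Ly6c1 (SE 0.16, limma adjusted p = 0.0143). For both genes the 2 shifts had the same direction. It was -2.37 for Ly6c2 (SE 0.16, limma adjusted p = 8.7e-11), which rose only in the conventional pair, and -0.48 for Ly6e (SE 0.06, limma adjusted p = 4.0e-07). Such a difference was common, with 48.7% of tested genes at an adjusted p under 0.05.

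Taken against each other, the member pair that diverged most between persistent and PAt and Arrested cells was Ly6a and Ly6c1. In persistent libraries the log2 value of Ly6a exceeded that of Ly6c1 by 4.57 ± 0.45, and in PAt and Arrested libraries by 0.42 ± 0.32 (SD over 6 libraries). Ly6c1 exceeded Ly6c2 by 0.15 ± 0.23 in persistent libraries and by 1.95 ± 0.43 in PAt and Arrested libraries. Across the 18 libraries, which share pools of mice and fall into 6 populations, Pearson's r was -0.80 for Ly6a and Ly6c1, 0.53 for Ly6a and Ly6e, -0.59 for Ly6c1 and Ly6e, and -0.30 for Ly6c1 and Ly6c2. These values describe the libraries and carry no test.

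The neighbours of the 4 genes on chromosome 15 changed less than Ly6a and Ly6c1 in the Treg comparison, though most changed more than Ly6c2 and Ly6e. Within 500 kb of the cluster on each side the annotation listed 56 genes, of which 13 were in the table and 8 were tested besides the members. Of these 8, none was called between persistent cells and PAt and Arrested cells, and their median log2 fold change was -0.62. The value was below 0 in 7 of them, with limma adjusted p-values from 2.1e-08 to 0.00493. An adjusted p under 0.05, in either direction, was held by 70.9% of all tested genes there. Calls in this comparison made up 7.51% of all tested genes. The closest tested gene to Ly6a, Ly6i, was low in every population (means 3.05 to 3.37) and changed by 0.06 (limma adjusted p = 0.514). Arc at the far end changed by -0.996 and Ly6d by -0.97, both just inside the required fold. Between Teff and Tnaive, Ly6d (3.74) and 2010109I03Rik (1.48) were called higher and none was called lower. The shares over all tested genes were 8.88% higher and 2.28% lower.

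**Figure D5:**
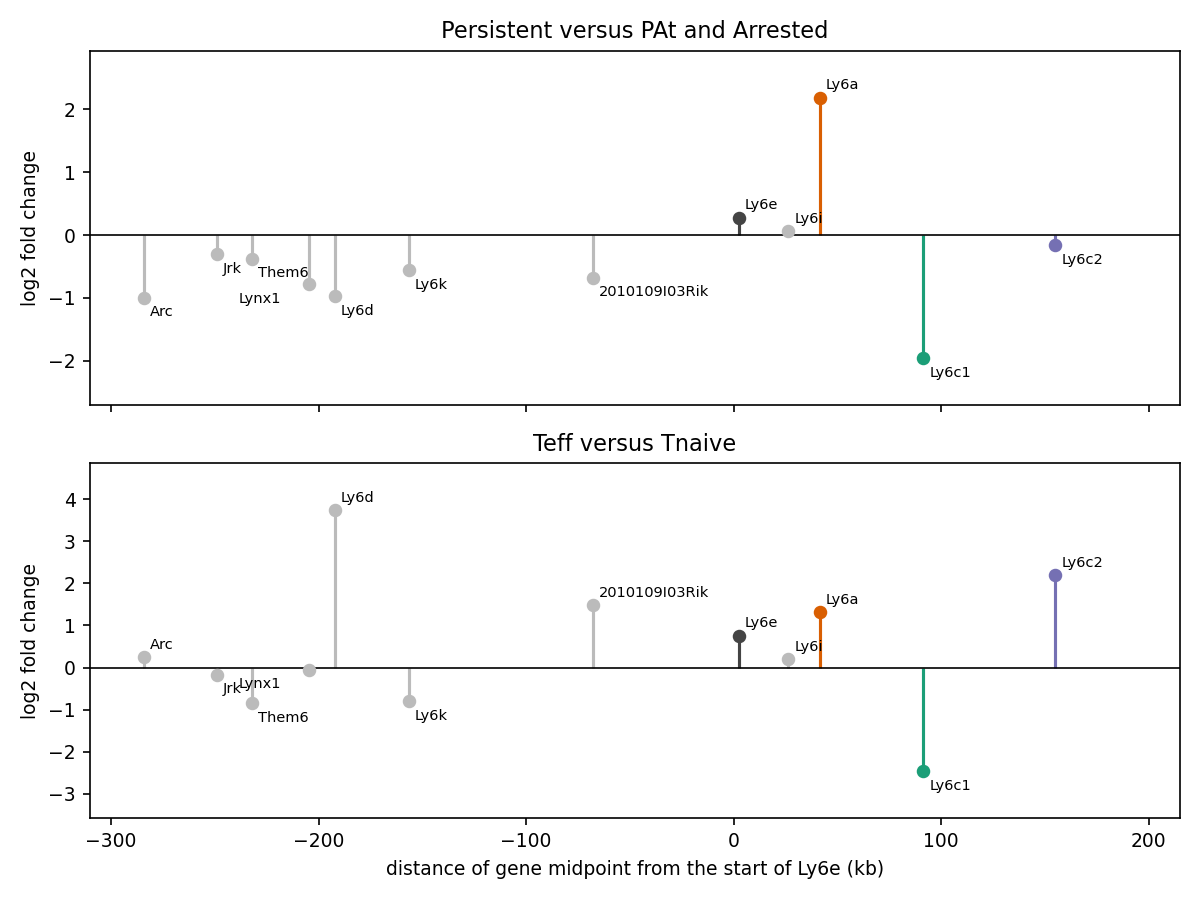
Log2 fold change (vertical axis) of the 12 tested genes around the cluster against the distance of each gene's midpoint from the start of Ly6e in kb (horizontal axis), for persistent against PAt and Arrested cells (top) and for Teff against Tnaive (bottom). In the top panel Ly6a (2.19) and Ly6c1 (-1.96) stood out in opposite directions about 50 kb apart, while their grey neighbours lay between -0.996 and 0.06.

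Of 42 further genes listed for the Ly6 and uPAR family, which share the same cysteine-rich fold, 11 were in the table and 7 passed the filter. In persistent cells none was called higher and 1 lower, Plaur, the urokinase receptor gene (log2 -1.17). Among all tested genes 4.74% were called higher and 2.77% lower there. The median over the 7 was -0.78, against -0.01 over all tested genes. Population means ran from 5.23 to 7.32 for Plaur, 5.92 to 7.26 for Lynx1 and 4.77 to 5.61 for Ly6k. They ran from 6.45 to 7.07 for Ly6g5b and from 3.05 to 3.37 for Ly6i. Lypd6b had the widest range, 9.69 in Tnaive to 4.60 in Pers2, and fell from Tnaive to Teff (log2 -2.35). Ly6d ranged from 5.65 in Tnaive to 9.39 in Teff. The means of Lypd1 (2.54 to 3.03), Lypd3 (1.97 to 2.17), Cd59a (2.26 to 2.58) and Cd59b (1.34 to 1.45) were too low to test.

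The machinery that the 4 proteins share was compared next. Of 29 tested genes for the synthesis and attachment of the GPI anchor, none was called in either direction in persistent against PAt and Arrested cells, with a median of -0.01. Of the 29, 17 had an unadjusted limma p under 0.05, in a comparison where 70.9% of all tested genes were under 0.05 even after adjustment. Of 13 tested genes for other GPI-anchored proteins of T cells, also none was called, with a median of -0.09. Of the 13, 5 had a value above 0. An unadjusted limma p under 0.05 was found for 9, only 3 of them higher in persistent cells. Thy1 changed by 0.58 and Cd48 by 0.50, against the direction of the median. Calls in this comparison made up 7.51% of all tested genes. In Teff against Tnaive 5 of the 13 were called higher and 1 lower, where 8.88% of all tested genes were called higher and 2.28% lower. Nt5e, which encodes the ecto-enzyme CD73, rose most (2.41), followed by Izumo1r, the folate receptor 4 gene (2.02), and Sema7a (1.90), and Cd55, a complement regulator, fell by 1.00.

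Ly6a and Ly6e are known interferon targets, so genes of that response were examined as a list. Of 48 interferon-stimulated genes, none was called higher and 4 lower in persistent cells, where 4.74% of all tested genes were called higher and 2.77% lower, with a median of -0.19 against -0.01 over all tested genes. At an unadjusted limma p under 0.05, 11 of the 48 were higher and 36 differed in either direction. The 4 were Ddx60 (-1.54), Oasl2 (-1.43), Usp18 (-1.33) and Oasl1 (-1.09), of which Usp18 is known to restrain the interferon signal. Irf7, a transcription factor of the response, changed by -0.58 and Ifit1 by -0.48. Among 13 genes of interferon receptors and signalling 2 were called lower, Socs1 (-1.44) and Ifngr2 (-1.20), and none higher. In Teff against Tnaive 3 of the 48 were called higher, Mx1 (2.24), Ifi27l2a (2.01) and Rsad2 (1.24), and 5 lower, beside 8.88% and 2.28% of all tested genes. Ly6a itself was called higher in both comparisons. The part of interferon in the values of Ly6a and Ly6e was not tested.

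By the likeness of their pattern over the 18 libraries, each member had different nearest genes, given by Pearson's r and without a test, since all genes share the libraries. For Ly6a they were Dazap2 (0.983), Desi1 (0.978), Ccdc25 (0.978), Atp6v1a (0.975) and 0610007P14Rik (0.974), all with a smaller range of means than Ly6a itself. Dazap2, for example, ran from 13.53 in PAt to 13.96 in Pers1. For Ly6c1 they were S1pr1 (0.970), Vezf1 (0.965), Dapk1 (0.961), Mir17hg (0.952) and Lsm11 (0.951). S1pr1 encodes the receptor by which lymphocytes leave lymph nodes. Its mean was 14.38 in Tnaive, 14.16 in Arrested, 13.96 in PAt, 13.66 in Pers1, 13.44 in Teff and 13.23 in Pers2, the order of Ly6c1 but for its first pair.

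The nearest genes of Ly6c2 were Btla (0.962), Scn8a (0.961), Pou2af1 (0.955), Csf2rb (0.955) and Cbfa2t3 (0.954). Btla encodes an inhibitory receptor of T, B and dendritic cells, and Pou2af1 a B-cell coactivator. Csf2rb, the shared receptor chain for myeloid cytokines, was at 8.54 in Teff and between 3.72 and 4.38 elsewhere. For Ly6e the nearest were Fam129a (0.991), Osbpl3 (0.990), Entpd1 (0.987), Rora (0.986) and Nrbp2 (0.984). Entpd1 encodes CD39, a Treg ecto-enzyme, and averaged 5.68 in Tnaive, 8.60 in Teff and 9.66 to 11.02 in the Timer+ populations. The number of tested genes with r over 0.9 was 446 for Ly6a, 387 for Ly6e, 126 for Ly6c1 and 114 for Ly6c2.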

How the data were processed

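Stranded mRNA libraries were sequenced as 100-bp pairs. Per the submitters' processing notes and the study's methods, reads were aligned to mm10 with TopHat2 2.0.9 and processed with DESeq2. The counting tool and its strand setting are not given in the sources used here. The authors deposited 1 table of log2 normalised counts (15402 genes, 18 libraries, values from -0.02 to 18.89). It holds no counts, so no depth, count test or counting interval could be had.

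The 13190 genes with a mean of at least 3 were fitted with limma 3.58.1 in R 4.3.3 (1 mean per population, trended variance, no pseudocount). A call required both an adjusted p below 0.05 and a log2 fold change beyond 1 in either direction. The fit was tested on simulated data.

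The members and lists were chosen with earlier results of these data known. Besides the members, the rule named all other Ly6 and uPAR genes in the table, the 5 genes most like each member, the 3 largest calls per list with Irf7, Ifit1, Thy1 and Cd48, and sort markers. Some genes under this rule are not reported here. Marker genes and other examples were chosen after their values were seen.

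All populations were sorted from each pool, so replicate numbers pair the libraries. Deviations from population means correlated with a median r of 0.166 over 45 same-number pairs (-0.206 to 0.436) and -0.0642 over 90 others. Alternatives covered the filter, centring, quantile normalisation, the trend, the replicate block, the call rule, the populations fitted, summing the Ly6c pair and leaving out each library. Sequences were read with Biopython 1.88 from GENCODE vM21 and RefSeq.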

Additional observations from a re-analysis of the deposited data

Results flagged for a closer look

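In each of the 4 genes the shift from PAt and Arrested to persistent cells differed from the shift from Tnaive to Teff by the limma test of the difference itself. For Ly6a the Treg shift was larger, with a difference of 0.87 on the log2 scale (2.19 against 1.31). For Ly6c1 both shifts were downward and the conventional one was larger, with a difference of 0.49 (-1.96 against -2.45). For Ly6c2 the difference was -2.37 (-0.17 against 2.20), and beside it stand the plasmacytoid dendritic cell and B-cell transcripts of Teff, whose part was not tested. For Ly6e the conventional shift was larger, with a difference of -0.48 (0.28 against 0.75). With 48.7% of tested genes past the same threshold, a difference of this kind is close to the rule in this table.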

How the results depend on the processing

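The calls of the 4 genes in the 7 comparisons were the same with no filter on low values, with a minimum mean of 5, without the variance trend and with only the populations compared in the fit. With the replicate number as a block all 38 values recomputed kept their call, for example 2.19 for Ly6a in persistent against PAt and Arrested cells. Centring the libraries on their medians turned 2 values that lay near 0 and were not called, Ly6e in Arrested against PAt (0.0091) and Ly6c1 in persistent cells against Teff (-0.017). Quantile normalisation moved the median of all genes in Teff against Tnaive from 0.0047 to -0.099, the only move by over 0.1, and brought Ly6e in PAt and Arrested against Tnaive to 1.01, past the required fold. Leaving out 1 library at a time left 370 of 372 values with their call and direction. Ly6c1 in persistent cells against Teff ranged from -0.011 to 0.11, lowest without Teff replicate 2, and Ly6e in Arrested against PAt from -0.040 to 0.018, highest without Arrested replicate 1.

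Without the fold requirement, 12 more values counted as called. They were Ly6e in persistent against PAt and Arrested cells (0.28), in Teff against Tnaive (0.75), in persistent cells against Teff (0.47), and in PAt and Arrested against Tnaive (0.94) and against Teff (0.19), Ly6c1 in Pers2 against Pers1 (-0.78) and in PAt and Arrested against Tnaive (-0.45), Ly6c2 in Pers2 against Pers1 (-0.77), in Arrested against PAt (0.47) and in PAt and Arrested against Tnaive (0.41), and Ly6a in Arrested against PAt (0.62) and in persistent cells against Teff (0.67). Summing Ly6c1 and Ly6c2 changed most, by construction, since the larger of the pair sets the sum. The sum changed by -1.37 in persistent against PAt and Arrested cells, which added a call for Ly6c2, and by -0.45 in Teff against Tnaive, which ended the call of Ly6c1 and turned Ly6c2. In Arrested against PAt it changed by 0.97, just under the required fold, in persistent cells against Teff by -1.23, in PAt and Arrested against Tnaive by -0.30 and against Teff by 0.15, with Ly6c1 or Ly6c2 turned in each of the last 3 and the call of Ly6c1 against Teff ended in the last. The unknown depth and the unstated assignment of reads shared by the pair limit how far Ly6c1 and Ly6c2 can be told apart.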

Other observations

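In persistent against PAt and Arrested cells 2.77% of all tested genes were called lower and 4.74% higher. Of 9 genes that mark naïve, memory and recirculating T cells, none was called higher there and 4 were called lower, as Ly6c1 was. They were Bcl2, a survival factor (log2 -2.97), Tcf7, the gene of the transcription factor TCF1 (-1.48), Ccr7, the chemokine receptor for lymph node homing (-1.37), and Klf2, a regulator of S1pr1 (-1.11). In Teff against Tnaive 5 of the 9 were called lower, Bcl2 (-2.23), Il7r (-1.41), Lef1 (-1.38), Ccr7 (-1.32) and Klf2 (-1.08). Cd44, the gene the sort used, was called higher (3.44). The shares of all tested genes called there were 2.28% lower and 8.88% higher. In Arrested against PAt, where Ly6c1 rose by 1.10, none of the 9 was called by limma, and 6 had an unadjusted p under 0.05. Only 0.121% of all tested genes were called in that comparison. Tcf7 was 0.43 higher (adjusted p = 2.55e-05), Lef1 0.29 higher (adjusted p = 0.0014) and Il7r changed by -0.45 (adjusted p = 0.0192), all under the required fold. These values were read after the list had been set with earlier results known, and carry no test of the list.

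Of 6 genes tied to Treg identity, 1 was called higher in persistent cells than in PAt and Arrested cells, Ctla4, an inhibitory receptor (1.69). Among all tested genes 4.74% were called higher there. Foxp3 itself was 0.24 higher and Il2ra changed by -0.12.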
